A study of Mus musculus with 6 samples.

Results

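The oligoadenylate synthetase family was followed here in mouse long-term haematopoietic stem cells, through 7 listed genes, namely Oas1a, Oas1c, Oas1g, Oas2, Oas3, Oasl1 and Oasl2. A gene was read from probe sets that the platform annotation assigns to it alone. By that rule 6 of the 7 genes had a value, each from 1 probe set, among 18193 genes and 45037 probe sets in all. Oas1g had no such probe set and is not analysed further, apart from its promoter. The 6 arrays came from 3 Irf8 knockout and 3 wildtype samples, all labelled as 3 weeks, called biological replicates and recorded as untreated; Irf8 encodes an interferon regulatory factor. Bone marrow cells without lineage markers and CD48, and with Sca-1, c-kit and CD150, were sorted straight into lysis buffer, and their RNA was amplified from small amounts before hybridisation to Affymetrix Mouse Genome 430 2.0 arrays. The labels and design text used here name no strain or sex, do not describe the deletion that makes the knockout, and do not say whether animals were pooled.

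Oligoadenylate synthetases are interferon-induced enzymes that sense double-stranded RNA. Once bound to it they join ATP into short chains with 2′-5′ links, called 2-5A, which switch on a latent enzyme that cuts cellular and viral RNA. Oas1 proteins carry a single enzyme unit, while Oas2 and Oas3 carry repeats of it, and the Oasl proteins end in ubiquitin-like domains. Transcription of the family is driven by interferon signals through the interferon-stimulated response element, a promoter sequence that interferon regulatory factors also bind.

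All family genes lie on chromosome 5 in the RefSeq annotation of GRCm38.p6. Oasl2 and Oasl1 are neighbours there. A second cluster runs through Oas2, Oas3, Oas1e, Oas1c, Oas1b, Oas1f, Oas1h, Oas1g, Oas1a, the pseudogene Gm7573 and Oas1d. Oas1b is annotated as a transcribed pseudogene. RefSeq promoter windows of 300 bases, 250 before and 50 after the annotated start, were matched by symbol for 6 of the 7 listed genes, all but Oas2. Each window was searched on both strands for GAAANNGAAA, the repeat at the core of the interferon-stimulated response element. The repeat occurred in 4 of the 6 windows, those of Oas1a, Oas1c, Oas1g and Oas3, against 3.44% of 32851 windows of the same length over all genes. The stretches below, the 130 bases before the annotated start written 5′ to 3′ on the strand of the gene, show where the members differ in this sequence, with matches in capitals.
Oas1a, chr5:120907526-120907655, minus strand: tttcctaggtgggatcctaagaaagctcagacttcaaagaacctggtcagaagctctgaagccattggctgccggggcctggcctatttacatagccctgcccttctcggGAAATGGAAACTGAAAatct
Oas1g, chr5:120887614-120887743, minus strand: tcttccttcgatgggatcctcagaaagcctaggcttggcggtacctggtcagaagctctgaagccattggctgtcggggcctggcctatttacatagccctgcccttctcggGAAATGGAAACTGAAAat
Oas1c, chr5:120812515-120812644, minus strand: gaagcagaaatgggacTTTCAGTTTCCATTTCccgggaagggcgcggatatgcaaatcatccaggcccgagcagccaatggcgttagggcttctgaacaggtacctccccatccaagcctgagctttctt
Oas3, chr5:120777660-120777789, minus strand: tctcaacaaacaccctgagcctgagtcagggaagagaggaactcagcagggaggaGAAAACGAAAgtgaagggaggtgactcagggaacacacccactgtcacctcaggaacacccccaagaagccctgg
Oasl1, chr5:114923110-114923239, plus strand: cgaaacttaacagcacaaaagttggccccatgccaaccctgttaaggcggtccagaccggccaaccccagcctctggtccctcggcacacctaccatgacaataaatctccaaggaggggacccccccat
Oasl2, chr5:114896804-114896933, plus strand: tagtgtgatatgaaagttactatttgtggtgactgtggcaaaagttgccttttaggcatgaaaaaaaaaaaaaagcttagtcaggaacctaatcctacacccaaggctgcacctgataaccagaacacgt

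Oas1a and Oas1g each held 2 overlapping matches close to the start, and Oas1c held 2 overlapping matches further upstream on the opposite strand. Oas3 held 1 match, and the windows of Oasl1 and Oasl2 held none of these letters. The windows of Oas1a and Oas1g were 85.3% identical in a global alignment, whereas every other pair of windows was between 41.9% and 48.5% identical. Composite sequences that IRF8 is known to bind together with the ETS factor PU.1 were searched in the same way. GGAANNGAAA was in 0 of the 6 windows and in 2.72% of all windows, and GAAANNGGAA was in the windows of Oas1a and Oas1g, just after the start, and in 2.8% of all windows. None of these spellings can be read as the others at the same position, and a match describes letters only.

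Expression values are log2 values from RMA, a method that corrects background, scales arrays to each other and combines the probes of a probe set. The median gene level, as the mean over the 6 arrays, was 5.81, and a typical difference between the groups carried a standard error of 0.46 (median over genes). The table carries no detection calls, so whether a dim value lies above background is not known. With 3 arrays a group, precision is set by that number, and p-values measure the spread between these samples only. Irf8 itself read 4.91, 6.39 and 6.50 in knockout and 4.98, 6.43 and 5.16 in wildtype, so its signal did not separate the labels. The position of that probe set relative to the deletion is not given, so directions refer to arrays as labelled. Stem cell markers were high, with Procr, Hlf and Mecom at 8.47 or above in every array. Of 8 measured, 5 had a lower and 3 a higher knockout mean, with a median difference of -0.22. Without knockout replicate 3, 3 were lower and 5 higher, with a median of 0.32, so this direction rested on that array. Procr averaged 9.80 ± 0.42 in knockout and 10.55 ± 0.27 in wildtype (SD, n = 3 each). Its groups were narrowly apart, at 10.21 or below in knockout and 10.24 or above in wildtype. Knockout lay lower without overlap for 4.25% of all genes. Neutrophil markers were higher in knockout: 13 of 13 measured genes had a higher knockout mean, and the log2 of their summed signal ran from 14.20 to 15.86 in knockout and from 12.39 to 13.05 in wildtype. Knockout replicate 3 stood at the top of that range, had the lowest mean correlation with the other arrays across genes (0.845, against 0.873 to 0.893 for the rest), and had the lowest summed signal of the 8 measured stem cell markers. In bulk samples, fewer cells of a type and less RNA per cell cannot be told apart, and the part of neutrophils, or of the other cell types that follow, in the differences below was not tested. Of 11 monocyte, macrophage and dendritic cell markers 9 were measured, 1 of them above the median gene level, with a log2 summed signal of 7.92 to 10.07 in knockout and 7.60 to 9.87 in wildtype. Of 5 measured erythroid markers 4 had a lower knockout mean, with a median difference of -1.20 and a log2 summed signal of 7.16 to 8.89 in knockout and 8.55 to 10.05 in wildtype. For 5 measured B cell markers that sum was 7.43 to 8.31 in knockout and 8.45 to 9.84 in wildtype, and for 4 of mast cells and basophils 5.83 to 6.61 in knockout and 6.23 to 9.42 in wildtype. It overlapped widely for megakaryocyte and for T and NK cell markers. No marker can read 0 on the RMA scale. Results that rest on knockout replicate 3 are given with and without that array.

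Family genes had knockout means on both sides of wildtype. Of the 6 genes 5 had a lower mean in knockout than in wildtype and 1, Oas2, had a higher one, with log2 differences from -2.39 for Oas1c to 1.03 for Oas2. The median difference of the 6 genes was -1.09, beside 0.07 over all 18193 genes, of which 43.4% had a lower knockout mean. The family median was -0.77 when knockout replicate 3 was left out and -0.64, with 4 genes lower, when wildtype replicate 3 was. Over all genes, 7900 were lower with every array kept. Without knockout replicate 3 that number was 9050, with a median of 0. Without wildtype replicate 3 it was 7721, with a median of 0.08. No family gene passed the test over all genes: limma with Benjamini-Hochberg adjustment called 0 of 6 at an adjusted p of 0.05, and 0% of all genes, with a smallest adjusted p of 0.0719 anywhere in the table. At an unadjusted p under 0.05, 2 of the 6 genes were lower and 0 higher, where 2.44% of all genes were lower and 2.4% higher. For the same 2 genes, Oas1c and Oas3, every knockout array lay below every wildtype array, which held for 4.25% of all genes.

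**Figure D1:**
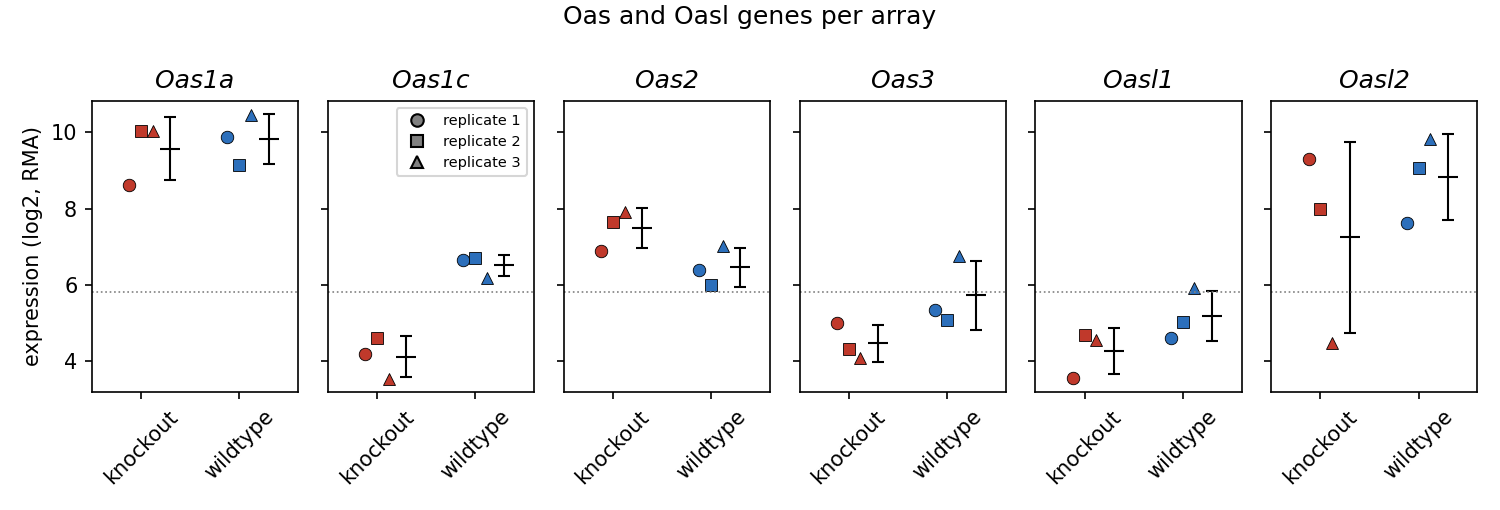
Log2 RMA expression (vertical axis) of the 6 measured Oas and Oasl genes in knockout (red) and wildtype (blue) arrays, with marker shape giving the replicate, horizontal ticks with bars giving the mean and SD (n = 3), and a dotted line at the median gene level of 5.81. The groups are apart for Oas1c and Oas3 and overlap for the other 4 genes, and Oasl2 spans 4.47 to 9.30 within knockout.

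Oas1c, one of several copies of Oas1 in the mouse, had the largest difference in the family. It read 4.20, 4.61 and 3.54 in knockout, against 6.65, 6.70 and 6.19 in wildtype. All knockout arrays thus lay well below all wildtype arrays, with little spread within either group. The means were 4.12 ± 0.54 in knockout and 6.51 ± 0.28 in wildtype (SD, n = 3 each), a difference of -2.39 (SE 0.37, 95% interval -3.27 to -1.51), or 5.24-fold lower. Its unadjusted p of 0.000403 ranked 12 among 18193 genes, and the adjusted p was 0.611 in limma. The wildtype values lay above the median gene level and the knockout values below it. Leaving out any single array kept the difference between -2.64 and -2.10, and it was -2.10 without knockout replicate 3.

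Oas3, whose human counterpart responds to long double-stranded RNA, also had groups that did not overlap, by a narrow margin. It read 5.00, 4.33 and 4.07 in knockout, against 5.35, 5.09 and 6.77 in wildtype. The highest knockout array was knockout replicate 1 and the lowest wildtype array was wildtype replicate 2, and these lay close together, while wildtype replicate 3 stood above the rest. The difference was -1.26 (SE 0.51, 95% interval -2.48 to -0.05), with an adjusted p = 0.887 in limma (unadjusted p = 0.0439). It was -0.75 once wildtype replicate 3 was dropped. In the fit over all 34945 single-gene probe sets the standard error was 0.54 and the unadjusted p 0.0547, so its place under 0.05 depended on which features shared the variance estimate.

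Oas2, which like Oas3 carries repeats of the enzyme unit and is its direct neighbour on the chromosome, was the 1 member with a higher knockout mean. It read 6.89, 7.66 and 7.91 in knockout, against 6.38, 6.00 and 7.01 in wildtype. Knockout replicate 1 lay just under wildtype replicate 3, so the groups overlapped, and the other 2 knockout arrays lay above all wildtype arrays. The difference was 1.03 (SE 0.53, 95% interval -0.24 to 2.29; unadjusted p = 0.0955 and adjusted p = 0.887 in limma). It stayed between 0.80 and 1.32 when any single array was left out.

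Oas1a, an active synthetase in the mouse and one of the copies with overlapping promoter matches, was well above the median gene level in all 6 arrays. It read 8.61, 10.04 and 10.05 in knockout, against 9.89, 9.14 and 10.45 in wildtype. The groups overlapped almost fully, with 1 low array in knockout. The difference was -0.26 (SE 0.57, 95% interval -1.62 to 1.11; adjusted p = 0.947 in limma), an interval that leaves room for a change of more than 1 log2 unit either way. Its sign turned when knockout replicate 1 was left out, to 0.22, and when wildtype replicate 3 was, to 0.05. Whether these probes also take up Oas1g RNA was not tested, since the probe sequences are not used here.

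Oasl1, reported in mice to hold back translation of the interferon regulator Irf7, was dim in these cells. It read 3.57, 4.69 and 4.56 in knockout, against 4.61, 5.02 and 5.91 in wildtype. Of the wildtype arrays only wildtype replicate 1 lay within the knockout range. The difference was -0.91 (SE 0.45, 95% interval -1.98 to 0.16; adjusted p = 0.887 in limma). Dropping knockout replicate 1 gave -0.55, and dropping wildtype replicate 3 gave -0.54.

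Oasl2, which in mice keeps the synthetase activity that Oasl1 lacks, varied most within a group. It read 9.30, 7.99 and 4.47 in knockout, against 7.62, 9.07 and 9.83 in wildtype. Knockout replicates 1 and 2 lay inside the wildtype range, and knockout replicate 3 lay far below every other array. The SD was 2.50 in knockout and 1.13 in wildtype, and the difference of -1.59 had a standard error of 1.30 (95% interval -4.67 to 1.50; adjusted p = 0.887 in limma). Without knockout replicate 3 the difference was -0.20, and without knockout replicate 1 it was -2.61. In knockout replicate 3 the median neutrophil marker lay 4.75 above its wildtype mean, against 1.83 and 1.34 in knockout replicates 1 and 2; the part this plays in the Oasl2 value was not tested.

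**Figure D2:**
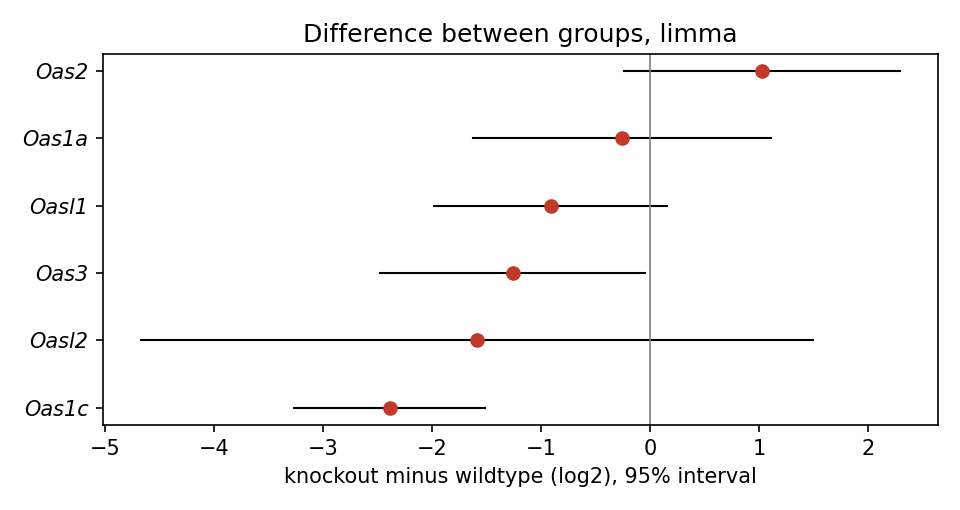
Knockout minus wildtype difference on the log2 scale (horizontal axis) for each measured family gene, with points for the estimate and lines for the 95% interval from limma over all genes. The intervals of Oas1c and Oas3 lie below 0, that of Oas3 ending at -0.05, and the other 4 span 0; none is adjusted for the number of genes.

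Array by array, the same 4 to 2 split of members below and above their wildtype mean appeared in each knockout array, but with different genes on the high side. In knockout replicate 1 the genes above the wildtype mean were Oas2 and Oasl2, by 0.43 and 0.46. In knockout replicates 2 and 3 they were Oas2 and Oas1a, with Oas2 at 1.20 and 1.45 and Oas1a at 0.22 and 0.23. Oas1c, Oas3 and Oasl1 were below the wildtype mean in all 3 knockout arrays. Among wildtype arrays, replicate 3 stood apart: 5 of the 6 members were above the wildtype mean there, all but Oas1c, whereas 2 of 6 were in each of wildtype replicates 1 and 2. The differences of Oas3 and Oasl1 were therefore smaller without wildtype replicate 3, as given above, while that of Oas2 was larger, at 1.30.

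**Figure D3:**
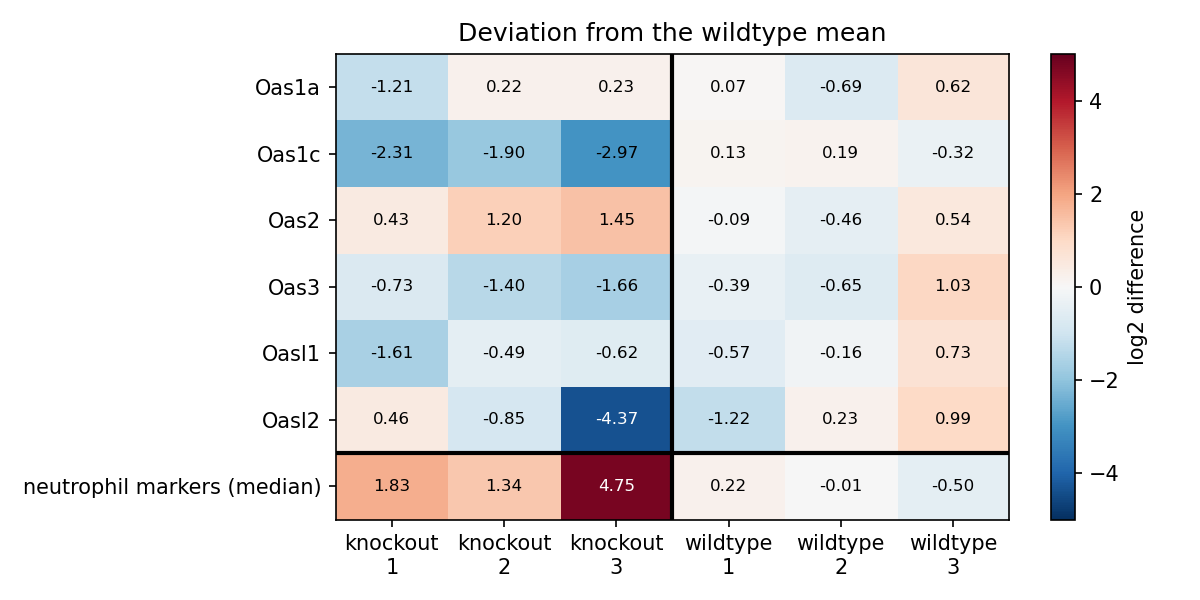
Each cell gives the log2 deviation of a gene (rows) from its wildtype mean in 1 array (columns, knockout left of wildtype), with red above and blue below, and the bottom row gives the median over 13 neutrophil markers. Oas2 is above the wildtype mean and Oas1c, Oas3 and Oasl1 below it in all 3 knockout arrays, and knockout replicate 3 combines the lowest Oasl2 value, -4.37, with the highest neutrophil marker median, 4.75.

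Oas2 was set against each other member through the difference between genes within each array, which removes any shift that an array gives to both. Oas2 was chosen for this with its higher knockout mean known, and all pairs share its values. The change of Oas2 exceeded that of Oas1c by 3.42, of Oasl2 by 2.61, of Oas3 by 2.29, of Oasl1 by 1.93 and of Oas1a by 1.28. For Oas1a, Oas1c, Oas3 and Oasl1 the within-array difference was higher in every knockout array than in every wildtype array. The same held for 27.8% of all other genes when each was set against Oas2, so this separation says little about the members. For Oasl2 the groups overlapped and the excess was 1.01 without knockout replicate 3. An exact two-sided permutation test over arrays gave p = 0.1 for the first 4 pairs and p = 0.2 for Oasl2, and after Benjamini-Hochberg adjustment over the 5 pairs 0.125 and 0.2. A p of 0.1 is the smallest that 3 against 3 arrays allow, so this test could not pass its threshold.

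**Figure D4:**
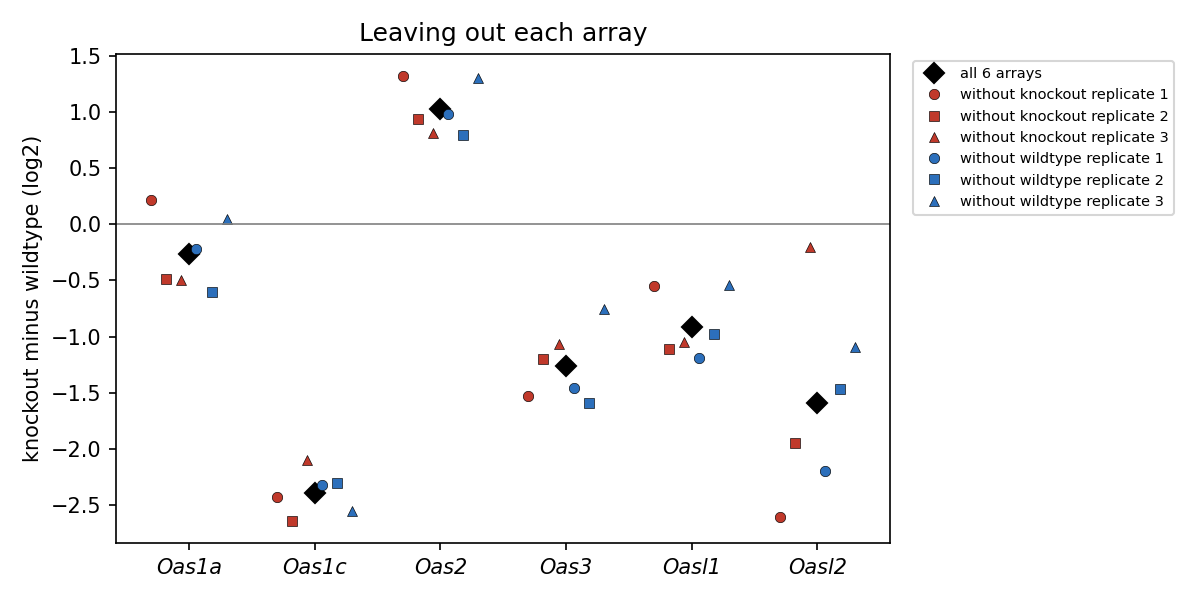
Knockout minus wildtype difference on the log2 scale (vertical axis) of each measured member with all 6 arrays (black diamonds) and with each array left out (red for knockout arrays, blue for wildtype arrays). Oas1c stays between -2.64 and -2.10 and Oas2 between 0.80 and 1.32, while Oasl2 ranges from -2.61 to -0.20 and Oas1a crosses 0.

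Further genes of the family and of the 2-5A pathway had overlapping groups. Of 5 further Oas1 genes listed, 4 were measured, with differences between -0.20 and 0.28 and a median of -0.06, whose sign depended on single arrays (0.16 without knockout replicate 2, 0.07 without knockout replicate 1 and -0.23 without knockout replicate 3). Oas1e, which lies between Oas3 and Oas1c, read 6.49, 6.52 and 6.85 in knockout and 6.86, 6.69 and 6.91 in wildtype, a difference of -0.20 (SE 0.41). Oas1h read 4.47, 4.48 and 4.93 in knockout and 4.17, 4.58 and 4.28 in wildtype, and Oas1f was dimmer still, at 3.38 or below in knockout and 3.43 or below in wildtype. Of 4 genes listed for the enzymes around 2-5A, 3 were measured, and 0 had groups without overlap. Abce1, known as an inhibitor of the 2-5A response, averaged 9.77 ± 0.15 in knockout and 9.61 ± 0.47 in wildtype (SD, n = 3 each). Pde12, a phosphodiesterase that breaks 2-5A down, read 5.81, 6.63 and 6.74 in knockout and 6.51, 6.53 and 3.03 in wildtype, where a single low wildtype array set the difference of 1.04 (SE 0.97). Akap7, another phosphodiesterase of 2-5A in mice, read 8.14, 4.10 and 7.22 in knockout and 7.24, 6.75 and 6.72 in wildtype.

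Sensors of double-stranded RNA and the signalling that follows were mixed in direction. Of 14 measured genes 6 had lower and 8 higher knockout means, the median was 0.23, and 0 passed in limma, adjusted or at an unadjusted p under 0.05. This median rested on single arrays: it ranged from -0.03 without knockout replicate 2 and 0.01 without wildtype replicate 1 to 0.33 without wildtype replicate 3. Ifih1, the sensor MDA5, read 7.62, 7.23 and 6.68 in knockout and 8.40, 7.57 and 9.47 in wildtype, a difference of -1.30 (SE 0.65, adjusted p = 0.887 in limma). Eif2ak2, the kinase PKR, which like the synthetases is switched on by double-stranded RNA, read 8.78, 8.64 and 9.32 in knockout and 8.02, 8.66 and 7.72 in wildtype, a difference of 0.78 (SE 0.51). Tlr3, the endosomal sensor, was dim in both groups, at 3.26 ± 0.36 in knockout and 3.70 ± 0.66 in wildtype (SD, n = 3 each).

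Of the interferon ligands, 4 of 5 had higher knockout means, by at most 0.39, and 4 of the 5 lay below the median gene level. Ifnb1, interferon beta, was dim and read 4.34, 4.01 and 4.04 in knockout and 3.60, 3.64 and 3.98 in wildtype. The groups were narrowly apart, at 4.01 or above in knockout and 3.98 or below in wildtype (unadjusted p = 0.0941 in limma). Knockout lay higher without overlap for 6.67% of all genes. Ifna2 and Ifna4 differed by 0.18 and 0.17. Among 10 measured genes of the interferon receptor and of the factors it activates, 7 had lower and 3 higher knockout means, with a median of -0.34 that moved to -0.09 when knockout replicate 3 was left out, and likewise to -0.09 when wildtype replicate 3 was. In limma 0 passed, and 1 of the 10, Socs1, had an unadjusted p under 0.05. Over all genes, 2.4% were higher and 2.44% lower at that unadjusted p. Ifnar2, a receptor chain, read 10.67, 9.07 and 8.52 in knockout and 9.96, 10.56 and 11.15 in wildtype. Tyk2, the kinase bound to the other chain, read 6.76, 6.20 and 5.60 in knockout and 7.92, 7.20 and 6.69 in wildtype, a difference of -1.09 (SE 0.55), and the groups overlapped by a small margin. Socs1, a feedback inhibitor of this pathway, went the other way and without overlap, at 5.72, 5.36 and 5.30 in knockout and 4.27, 4.34 and 4.76 in wildtype, a difference of 1.00 (SE 0.27, unadjusted p = 0.0081, adjusted p = 0.887 in limma).

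Most other interferon-stimulated genes had lower knockout means, as 5 of the 6 family genes had. Of 27 measured, 19 were lower and 8 higher, with a median of -0.76, and every knockout array lay below every wildtype array for 9 of them and above for 0, where 4.25% of all genes lay below and 6.67% above in this way. In limma 0 passed, and 7 were lower and 0 higher at an unadjusted p under 0.05, as were 2.44% and 2.4% of all genes. Rsad2, the antiviral enzyme viperin, read 5.57, 5.34 and 6.52 in knockout and 8.04, 8.75 and 9.0 in wildtype. Ube2l6, a conjugating enzyme for an interferon-induced ubiquitin-like protein, read 4.85, 5.70 and 3.86 in knockout and 6.76, 7.80 and 6.68 in wildtype, and Irgm1, a GTPase of autophagy and host defence, read 5.78, 4.84 and 4.26 in knockout and 5.93, 6.78 and 6.98 in wildtype. Without knockout replicate 3 the median was -0.53 with 19 genes lower, and without wildtype replicate 3 it was -0.65 with 16 lower. The direction of Oas2 was thus shared by 8 of the 27, with differences from 0.09 for Igtp to 0.98 for Isg20, against 1.03 for Oas2. Whether the family differs from this list was not tested.

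**Figure D5:**
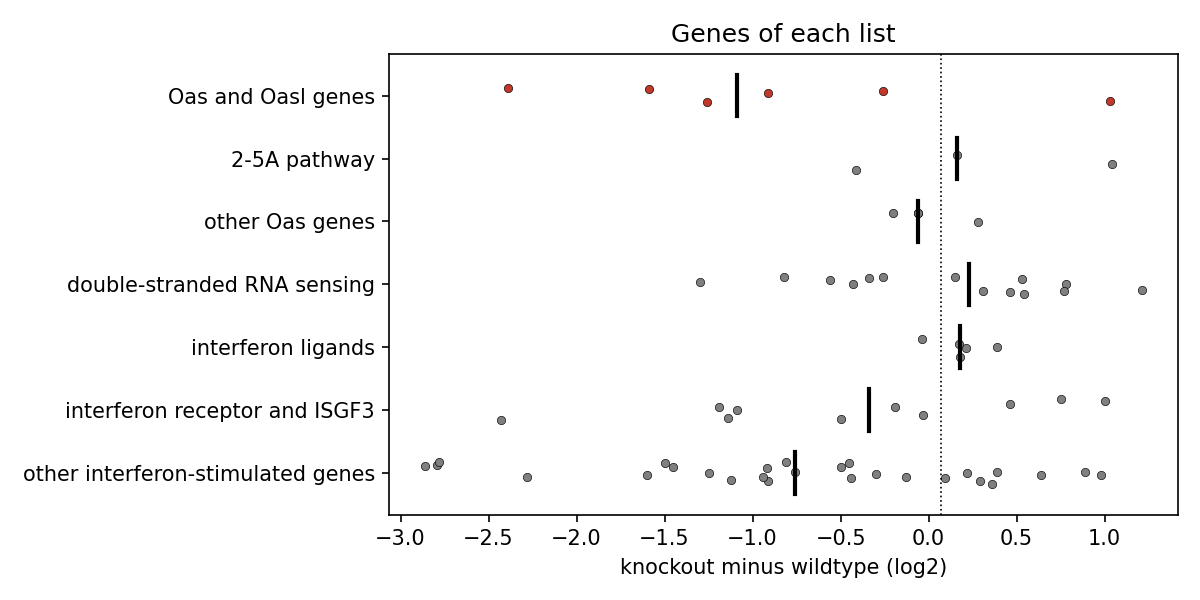
Knockout minus wildtype difference on the log2 scale (horizontal axis) of each measured gene in 7 lists, with the Oas and Oasl genes in red, thick bars at list medians and a dotted line at the median of all genes, 0.07. Genes of both signs occur in every list, and the medians run from -1.09 for the family and -0.76 for other interferon-stimulated genes to 0.23 for double-stranded RNA sensing.

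For the 3 members above the median gene level, the genes with the most similar profile over the 6 arrays were found by the root mean square difference of log2 values, each gene centred on its own mean, among 9095 other genes above that level. For Oas2 these were Hyi and Slmap, at 0.146 and 0.179, where Oas2 itself had an SD of 0.73 over the arrays. For Oas1a they were Aatf and Actr1a, at 0.167 and 0.177 (SD of Oas1a 0.68). For Oasl2 they were Slc41a1 and Cdc14a, at 0.245 and 0.318 (SD of Oasl2 1.94), and these also had their lowest value in knockout replicate 3, at 4.56 and 4.30. None of the 6 was on the interferon lists used here. With 6 arrays and so many genes compared, close profiles occur for many genes, and the likeness is a description.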

How the data were processed

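The values deposited by the authors are on the log2 scale, with 1 value for each probe set on each array. Per the submitters' processing notes, which give no versions or settings, the tools were Partek, Affymetrix Expression Console and RMA. RMA compresses differences of dim probe sets. Of 45037 probe sets, 34945 named 1 gene. For genes with several, the one with the highest mean stood for the gene, which touched no family member. The knockout minus wildtype contrast was fitted with limma 3.58.1 under R 4.3.3 (lmFit, eBayes with a mean-variance trend) over all 18193 genes, and over all single-gene probe sets, without a filter on level, with an adjusted p threshold of 0.05. The fit was also run on simulated data with independent normal noise and 1 SD per gene. Those data hold no outlying array, so they do not show how the fit behaves on these arrays. Within-array differences to Oas2 had exact permutation tests. Promoters and their coordinates were credited to RefSeq (GRCm38.p6). The array files name no build, so no other gene coordinates are given. Named genes were the members, Irf8, up to 3 genes per pathway list with the smallest unadjusted p, up to 3 markers with the highest mean, and the 2 likeliest profiles per member above the median level. Members and lists were chosen with earlier results of these data known. Listed genes without a value are not analysed here. Same-numbered knockout and wildtype arrays had correlations of their deviations across genes of -0.024, -0.009 and -0.011, so the numbers were not treated as pairs. Alternatives covered probe set choice, level, moderation, scaling, a replicate block and leaving out each array.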

Additional observations from a re-analysis of the deposited data

How the results depend on the processing

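No family gene passed under any of the alternatives run, and Oas1c, Oas2, Oas3, Oasl1 and Oasl2 kept their direction in each one that held them. Oas1a turned to 0.05 without wildtype replicate 3 and to 0.22 without knockout replicate 1, as a gene and as a probe set, with a range of -0.60 to 0.22 when each array was left out. Among all genes, 1 passed when probe sets of a gene were averaged and 1 when arrays were centred on their median, against 0 as reported; the cause was not tested. With the replicate number as a block 0 family genes and 0 of all genes passed, and it changed no call. The labels do not say whether same-numbered arrays belong together. The number of family genes below wildtype, 5, was 4 to 5 when each array was left out. The number lower in knockout without overlap, 2, was 2 to 3. Both family counts were added after the values were seen. Among all 18193 genes, 774 were lower without overlap with every array kept, and 1386 to 1825 when each array was left out. The family count of 2 to 3 therefore cannot be read as a stable or stronger separation. The excess of Oas2 over each other member stayed above 0 in all settings run, and over Oasl2 it fell to 1.01 without knockout replicate 3. Since Oas2 was chosen with its higher knockout mean known and the settings reuse the same values, this sign is no separate evidence. Oas1c, Oas3 and Oasl1 lay under the median gene level, so the gene fit restricted to brighter genes does not hold them. Whether their knockout signal lies above background is not known, which limits how low those values can be read.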
